A study of Homo sapiens with 12 samples.

Results

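The 8 genes NCCRP1, MPPED1, ZNF114, B4GALNT1, FRMD3, OTULINL, CALHM3 and CSF3R were chosen by name, with earlier results of these libraries known, because they stood far higher after UHRF1 knockdown and from a low level in control cells. They are 8 of 57820 gene identifiers counted and 8 of 16060 genes that passed the filter on low counts. CSF3R passed that filter through its reads in Kyse410, since no TE10 library held more than 4 of its reads. The knockdown contrasts and the scramble levels chose the genes, so these values are given as a description, with intervals and without p-values. OTULINL is called FAM105A in older annotations.

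The libraries were made from polyadenylated RNA of stably infected Kyse410 and TE10 cells, 2 established human lines of esophageal squamous cell carcinoma. The 4 groups were Kyse410 with a UHRF1 shRNA, Kyse410 with the scramble control, TE10 with a UHRF1 shRNA and TE10 with the scramble control, with 3 libraries each. All 4 groups were infected, and the labels do not say how many hairpins or clones were used. They also do not say whether replicate libraries stem from separate cultures, and the p-values given below then rest on library-to-library spread that may be technical.

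UHRF1 binds hemimethylated CG sites behind the replication fork, and brings the maintenance methyltransferase DNMT1 to them, so that the methylation pattern of the parent strand is copied. Dense methylation of a CG-rich promoter is a textbook state of silenced genes, and squamous carcinomas are known for altered promoter methylation. DNA methylation was not measured in these libraries. The 8 genes share no pathway. They encode a glycosyltransferase (B4GALNT1), a putative metallophosphoesterase (MPPED1), an F-box-associated domain protein (NCCRP1), an inactive relative of a deubiquitinase (OTULINL), a FERM domain protein of the membrane skeleton (FRMD3), a KRAB zinc finger protein (ZNF114), a channel subunit (CALHM3) and a cytokine receptor (CSF3R).

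Promoter windows are shown because CG dinucleotides are the sites at which UHRF1 and DNMT1 act, and because they are a feature of the genes that the choice did not use. RefSeq windows of 300 bases, reaching from 250 bases before to 50 bases after an annotated start, were at hand for 5 of the 8 genes in build GRCh38.p14. The first listed window of each is printed 5′ to 3′ on the gene's strand, with every CG dinucleotide in capitals. MPPED1 lies at chr22:43411764-43412063 on the plus strand, FRMD3 at chr9:83538352-83538651 on the minus strand, OTULINL at chr5:14581542-14581841 on the plus strand, CALHM3 at chr10:103479191-103479490 on the minus strand and CSF3R at chr1:36483265-36483564 on the minus strand.
MPPED1: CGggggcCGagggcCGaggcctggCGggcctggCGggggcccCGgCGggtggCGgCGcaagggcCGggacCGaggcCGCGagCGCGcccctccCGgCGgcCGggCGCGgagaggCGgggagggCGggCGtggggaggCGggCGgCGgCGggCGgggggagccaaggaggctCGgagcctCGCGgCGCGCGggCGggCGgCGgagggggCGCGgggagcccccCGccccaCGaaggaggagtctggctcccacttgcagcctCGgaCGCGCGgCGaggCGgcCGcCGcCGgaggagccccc
FRMD3: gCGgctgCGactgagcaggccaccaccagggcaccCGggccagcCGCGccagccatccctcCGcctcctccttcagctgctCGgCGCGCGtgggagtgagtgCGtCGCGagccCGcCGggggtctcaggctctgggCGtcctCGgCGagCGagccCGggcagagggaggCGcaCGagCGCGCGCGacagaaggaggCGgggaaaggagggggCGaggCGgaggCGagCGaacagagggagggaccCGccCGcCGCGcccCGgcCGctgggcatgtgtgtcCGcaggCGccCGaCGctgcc
OTULINL: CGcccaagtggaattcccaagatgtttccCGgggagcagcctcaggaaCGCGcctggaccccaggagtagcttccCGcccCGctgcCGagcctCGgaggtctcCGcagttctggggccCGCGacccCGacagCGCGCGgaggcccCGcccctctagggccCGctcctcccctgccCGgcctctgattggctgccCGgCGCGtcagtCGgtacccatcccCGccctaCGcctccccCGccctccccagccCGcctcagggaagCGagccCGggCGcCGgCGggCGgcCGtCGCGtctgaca
CALHM3: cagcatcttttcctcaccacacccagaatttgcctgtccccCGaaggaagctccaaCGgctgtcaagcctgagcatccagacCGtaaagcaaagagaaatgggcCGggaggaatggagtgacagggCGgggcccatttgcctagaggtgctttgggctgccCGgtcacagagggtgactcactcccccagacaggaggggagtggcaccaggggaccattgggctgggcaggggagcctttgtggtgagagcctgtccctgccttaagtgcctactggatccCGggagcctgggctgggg
CSF3R: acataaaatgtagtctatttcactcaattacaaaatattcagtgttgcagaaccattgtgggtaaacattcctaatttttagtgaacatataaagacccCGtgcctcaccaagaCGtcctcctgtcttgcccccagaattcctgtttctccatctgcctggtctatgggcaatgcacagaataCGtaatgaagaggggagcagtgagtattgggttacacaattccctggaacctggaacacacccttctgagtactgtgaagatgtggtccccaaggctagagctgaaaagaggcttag

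These windows fell at both ends of the CG scale. Over all 35116 RefSeq windows the median was 14 CG dinucleotides, with quartiles of 4 and 28. MPPED1 had 50 of them, more than 98.7% of all windows, at 86.0% GC. FRMD3 had 41 and OTULINL had 35, more than 93.3% and 85.9% of all windows. CALHM3 had 7 and CSF3R had 3, fewer than the median window. A CG-rich window is therefore not shared by the 5 genes with an entry. Second and later annotated starts were CG-poor as well, with 2 in the second MPPED1 window, 2 or 3 in the other FRMD3 windows and 9 in the second CSF3R window. Which start was used in these cells cannot be read from counts per gene.

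**Figure D1:**
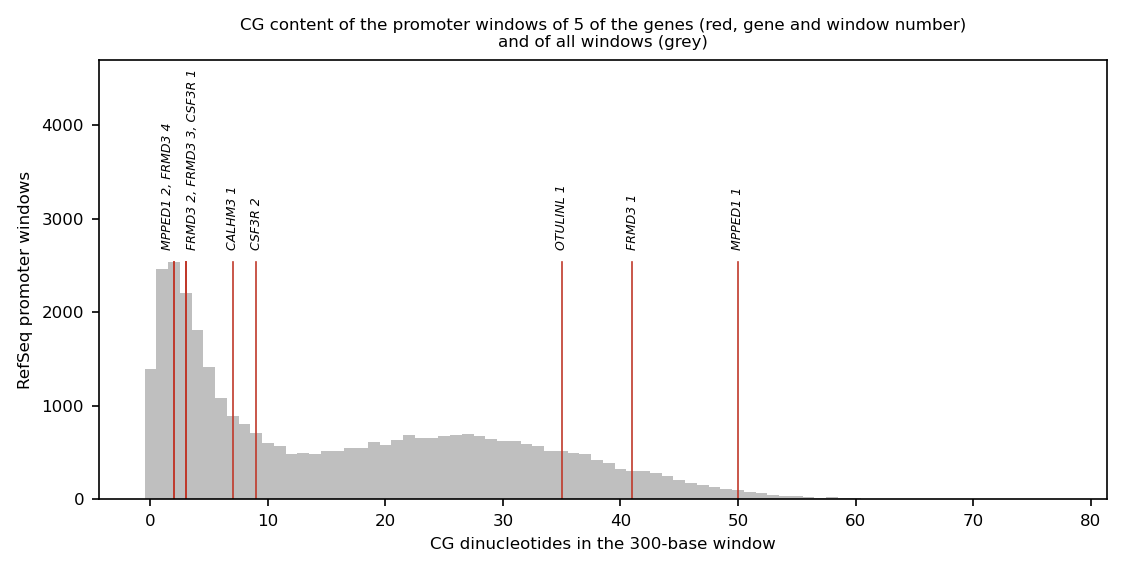
Number of CG dinucleotides per 300-base promoter window (x axis) against the number of RefSeq windows (y axis), with all 35116 windows in grey and the windows of 5 of the 8 genes as red lines. The first windows of MPPED1, FRMD3 and OTULINL, with 50, 41 and 35, lie in the right-hand part of the distribution, and those of CALHM3 and CSF3R, with 7 and 3, lie left of the median of 14.

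Short promoter motifs were searched on both strands as exact letters. The GC box core GGGCGG occurred 6 times in the first MPPED1 window, 5 times in that of OTULINL and once each in those of FRMD3 and CALHM3, and 45.0% of all windows hold it. The TATA motif TATAAA occurred in the first CSF3R window, against 11.5% of all windows. The AP-1 motif TGACTCA occurred in the CALHM3 window, against 4.95% of all windows. Among the first windows, the CCAAT motif occurred in those of OTULINL, CALHM3 and CSF3R, and 34.6% of all windows hold it. Among the later windows, it occurred in the second MPPED1 window and in the other FRMD3 windows. The second FRMD3 window also held GGGCGG. A match here describes letters and is not evidence of a bound factor.

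UHRF1 itself, the targeted gene, was lower with the shRNA in both lines. Kyse410 shRNA libraries averaged 42.5 ± 0.892 CPM and Kyse410 scramble libraries 99.1 ± 3.47 CPM (SD, n = 3 each; CPM, gene reads per library scaled to a common total by TMM). The log2 fold change was −1.22 ± 0.057 (SE; edgeR adjusted p = 1.62e-24). TE10 shRNA libraries averaged 85.9 ± 3.50 CPM and TE10 scramble libraries 178.5 ± 5.34 CPM, a log2 fold change of −1.06 ± 0.053 (adjusted p = 3.22e-23). The libraries held 7857662 to 12005229 gene reads. Between replicate libraries the chi-square of the counts was 1.57 to 2.92 per degree of freedom, highest between replicates 1 and 2 of Kyse410 shRNA. Of 16 squamous epithelial markers 15 passed the filter, with summed levels of 2413 to 2505 CPM in Kyse410 shRNA, 1971 to 2006 CPM in Kyse410 scramble, 2138 to 2226 CPM in TE10 shRNA and 2099 to 2147 CPM in TE10 scramble libraries. These sums cover markers that went different ways, with 10 called higher and 2 lower in Kyse410, and 5 higher and 8 lower in TE10. The basal keratin gene KRT5 averaged 8.05 CPM in TE10 shRNA and 67.4 CPM in TE10 scramble libraries (log2 −3.06 ± 0.12, adjusted p = 4.21e-28), and it was near absent from Kyse410, at 1.37 CPM with the shRNA and 1.14 CPM with the scramble. KRT14 and KRT17 fell in both lines (KRT14 −1.79 ± 0.24 in Kyse410, adjusted p = 1.29e-08, and −2.28 ± 0.12 in TE10, adjusted p = 5.66e-23; KRT17 −0.98 ± 0.063, adjusted p = 5.64e-19, and −1.19 ± 0.074, adjusted p = 2.12e-19). TP63, the transcription factor gene of basal squamous cells, rose by 0.14 ± 0.055 in Kyse410 (adjusted p = 0.0264) and fell by 0.69 ± 0.063 in TE10 (adjusted p = 3.03e-13). Called higher in both lines were KRT13, PERP, TRIM29, EPCAM and CDH1. CDH1 rose by 0.79 ± 0.046 in Kyse410 (adjusted p = 6.38e-21) and 1.20 ± 0.057 in TE10 (adjusted p = 3.06e-24). KRT4 averaged 3.06 CPM in Kyse410 shRNA and 0.253 CPM in Kyse410 scramble libraries (3.57 ± 0.43, adjusted p = 5.69e-10). In TE10 it was not called (0.53 ± 0.30, adjusted p = 0.17). SOX2 was not tested. The part of this marker shift in the levels of the 8 genes was not tested. In bulk RNA a change in the number of cells that express a gene and a change in RNA per cell cannot be told apart, and this holds for every value below.

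B4GALNT1 (ENSG00000135454.9, chromosome 12) encodes the N-acetylgalactosaminyltransferase that starts the complex gangliosides, sialic-acid glycolipids of the cell surface, by extending GM3 and GD3. It had 11.8, 9.18 and 11.7 CPM in the Kyse410 shRNA libraries, against 1.38, 1.22 and 0.758 CPM in the Kyse410 scramble libraries. In TE10 it had 24.3, 23.5 and 23.8 CPM with the shRNA, against 1.81, 2.14 and 2.44 CPM with the scramble. The groups did not overlap in either line, and the TE10 shRNA libraries lay above all others. The fitted log2 fold change was 3.24 ± 0.21 in Kyse410 (SE; 95% interval 2.82 to 3.67) and 3.47 ± 0.18 in TE10 (3.10 to 3.83). The scramble values rested on 8 to 17 reads per Kyse410 library and 14 to 23 reads per TE10 library.

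B4GALNT1 shares 2136 exon bases, 26.7% of its exon length, with SLC26A10 on the opposite strand. SLC26A10 held 104 reads over the Kyse410 shRNA libraries and 7 over the Kyse410 scramble libraries, and 145 over the TE10 shRNA libraries and 9 over the TE10 scramble libraries. Its log2 fold changes were 3.81 ± 0.43 in Kyse410 (edgeR adjusted p = 1.14e-10) and 4.10 ± 0.39 in TE10 (adjusted p = 8.13e-13). The strand setting of the counting is not given in the sources used here, so reads from the shared exons cannot be told apart between the 2 genes. SLC26A10 was therefore not taken as an independent observation, and whether it received reads of B4GALNT1 was not tested.

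MPPED1 (ENSG00000186732.9, chromosome 22) carries a metallophosphoesterase domain and is known mainly from brain. Its levels were 36.6, 34.4 and 33.3 CPM in Kyse410 shRNA libraries, against 3.74, 1.84 and 2.75 CPM in Kyse410 scramble libraries. With the TE10 shRNA it had 22.4, 22.8 and 21.0 CPM, against 1.68, 2.26 and 0.847 CPM with the TE10 scramble. The shRNA libraries of a line lay close together, while the highest scramble library held over 2 times the level of the lowest in both lines. The log2 fold change was 3.61 ± 0.15 in Kyse410 (95% interval 3.31 to 3.91) and 3.81 ± 0.20 in TE10 (3.41 to 4.20).

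NCCRP1 (ENSG00000188505.4, chromosome 19) has the F-box-associated domain with which FBXO2 and its relatives bind glycoproteins, but it lacks the F-box itself. The Kyse410 shRNA libraries had 24.5, 22.2 and 21.6 CPM, against 1.30, 0.918 and 0.758 CPM in the Kyse410 scramble libraries. The TE10 shRNA libraries had 14.9, 18.2 and 13 CPM, against 1.16, 0.832 and 1.59 CPM in the TE10 scramble libraries. This was the lowest scramble mean of the 8 genes in Kyse410, below the level of all but 5.13% of the genes tested, and the shRNA mean exceeded the level of 52.9% of them. Its log2 fold change was 4.48 ± 0.19 in Kyse410 (95% interval 4.09 to 4.87) and 3.65 ± 0.22 in TE10 (3.21 to 4.09). From the reads alone, 739 in shRNA and 33 in scramble libraries, the Kyse410 ratio was 22.6-fold with a 95% counting interval of 15.9 to 33.1. On the log2 scale this counting interval is wider than the fitted one.

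OTULINL (ENSG00000145569.5, chromosome 5) is the neighbour and relative of OTULIN, the deubiquitinase of linear ubiquitin chains. OTULINL has lost the catalytic residues and sits at the endoplasmic reticulum membrane. Kyse410 shRNA libraries had 32.9, 33.8 and 32.3 CPM of it, against 2.60, 2.86 and 3.51 CPM in Kyse410 scramble libraries. TE10 shRNA libraries had 42.5, 46.9 and 51.0 CPM, against 7.62, 7.73 and 7.52 CPM in TE10 scramble libraries. All shRNA libraries lay above all scramble libraries, whichever the line. The log2 fold change was 3.47 ± 0.13 in Kyse410 (95% interval 3.21 to 3.73) and 2.62 ± 0.11 in TE10 (2.39 to 2.84).

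OTULIN, next to it on the chromosome, did not follow. It averaged 60.2 ± 1.45 CPM in Kyse410 shRNA and 56.8 ± 4.67 CPM in Kyse410 scramble libraries (SD, n = 3 each), and its log2 fold change of 0.09 ± 0.062 did not pass the test (edgeR adjusted p = 0.243). In TE10 it averaged 92.8 ± 2.31 CPM with the shRNA and 84.9 ± 0.890 CPM with the scramble, a log2 fold change of 0.13 ± 0.060 (adjusted p = 0.0867). Per kilobase of exon, OTULINL stood at 8.09 CPM in Kyse410 shRNA and 0.733 CPM in Kyse410 scramble libraries, beside 6.98 and 6.59 CPM for OTULIN in the same 2 groups. The 2 genes thus stood nearer to each other per length in shRNA cells than in scramble cells.

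FRMD3 (ENSG00000172159.11, chromosome 9) encodes a relative of band 4.1 proteins, whose FERM domain ties membrane proteins to the actin skeleton. It was the most highly counted of the 8 in Kyse410, with 57.9, 59.0 and 61.4 CPM in shRNA libraries, against 5.61, 4.18 and 6.06 CPM in scramble libraries. TE10 shRNA libraries had 30.9, 35.7 and 31.6 CPM, against 4.65, 4.16 and 4.87 CPM in TE10 scramble libraries. The scramble levels of the lines overlapped, and the Kyse410 shRNA libraries lay above those of TE10. This was a log2 fold change of 3.48 ± 0.11 in Kyse410 (95% interval 3.26 to 3.69) and 2.84 ± 0.13 in TE10 (2.57 to 3.10).

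ZNF114 (ENSG00000178150.4, chromosome 19) encodes a KRAB zinc finger protein, a class of DNA-binding proteins that mostly act as repressors. In Kyse410 it had 11.5, 12.4 and 11.8 CPM with the shRNA, against 0.975, 1.43 and 1.33 CPM with the scramble. In TE10 it had 23.2, 17.6 and 19.0 CPM with the shRNA, against 1.03, 0.713 and 1.69 CPM with the scramble. Here the TE10 shRNA libraries were the highest, and the scramble libraries of the 2 lines overlapped. Its log2 fold change was 3.27 ± 0.21 in Kyse410 (95% interval 2.84 to 3.69) and 4.07 ± 0.22 in TE10 (3.64 to 4.51). ZNF114 shares 114 exon bases, 3.81% of its exon length, with the opposite-strand ZNF114-AS1, which held 74 reads over Kyse410 shRNA and 2 over Kyse410 scramble libraries, and 26 over TE10 shRNA and 1 over TE10 scramble libraries. Reads of that stretch cannot be told apart between the pair either.

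CALHM3 (ENSG00000183128.7, chromosome 10) is a subunit of the voltage-gated channel through which taste cells release ATP, where it pairs with CALHM1. Kyse410 shRNA libraries had 22.2, 17.9 and 21.2 CPM, against 2.36, 1.53 and 1.61 CPM in Kyse410 scramble libraries. TE10 shRNA libraries had 16.9, 13.8 and 14.5 CPM, against 6.98, 5.35 and 5.61 CPM in TE10 scramble libraries. The groups did not overlap in either line, but the gap in TE10 was much the smaller, with a scramble level above that of Kyse410. That gave a log2 fold change of 3.44 ± 0.17 in Kyse410 (95% interval 3.09 to 3.79) and 1.34 ± 0.16 in TE10 (1.02 to 1.66). Its partner CALHM1 was not tested, with at most 3 reads in any library.

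CSF3R (ENSG00000119535.13, chromosome 1) encodes the receptor for granulocyte colony-stimulating factor, which drives neutrophil production through JAK2 and STAT3. The Kyse410 shRNA libraries had 36.8, 35.2 and 37.1 CPM, against 4.31, 2.75 and 3.03 CPM in the Kyse410 scramble libraries. In TE10 it was barely detected, with 4, 1 and 4 reads in the shRNA libraries, against 2, 1 and 3 reads in the scramble libraries. The Kyse410 groups did not overlap and the TE10 groups did. The Kyse410 log2 fold change was 3.41 ± 0.14 (95% interval 3.12 to 3.69). In TE10 the ratio of the summed reads, 9 in shRNA and 6 in scramble libraries, was 1.65-fold with a 95% counting interval of 0.526 to 5.64, so a rise was not detectable at this depth. CSF3R thus met the description of the set in Kyse410 only.

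Neutrophil and other blood cell markers gave no counterpart to the CSF3R reads. Of 17 such markers 1, CSF1R, passed the filter, and it was not called in either line. Their summed level was 7.70 to 9.03 CPM in Kyse410 shRNA and 8.47 to 9.995 CPM in Kyse410 scramble libraries. MPO, CXCR1, S100A12, CEACAM8 and MS4A1 had no read in any library, and 12 of the 17 had at most 3 reads in any library. The ligand gene CSF3 had at most 5 reads in any library and was not tested. Of 10 neural markers 3 passed the filter, and their summed level was 11.9 to 12.7 CPM in Kyse410 shRNA, 17.65 to 18.95 CPM in Kyse410 scramble, 4.64 to 6.01 CPM in TE10 shRNA and 11.7 to 13.8 CPM in TE10 scramble libraries. Of 12 fibroblast and endothelial markers 3 passed (COL1A1, PDGFRB and CDH5), and their summed level was higher with the shRNA, at 242.5 to 267.9 CPM in Kyse410 shRNA, 138.9 to 149.3 CPM in Kyse410 scramble, 61.96 to 71.2 CPM in TE10 shRNA and 54.5 to 59.2 CPM in TE10 scramble libraries. COL1A1 rose by 0.43 ± 0.051 in Kyse410 (edgeR adjusted p = 5.27e-10) and 0.26 ± 0.072 in TE10 (adjusted p = 0.00292), and CDH5 by 1.95 ± 0.078 (adjusted p = 1.95e-27) and 0.62 ± 0.14 (adjusted p = 0.000208). PDGFRB went the other way, with 3.47 CPM in Kyse410 shRNA and 5.81 CPM in Kyse410 scramble libraries (−0.74 ± 0.23, adjusted p = 0.00517), and 0.736 CPM in TE10 shRNA and 3.60 CPM in TE10 scramble libraries (−2.25 ± 0.37, adjusted p = 1.42e-06). The part of these genes in the levels of the 8 was not tested.

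**Figure D2:**
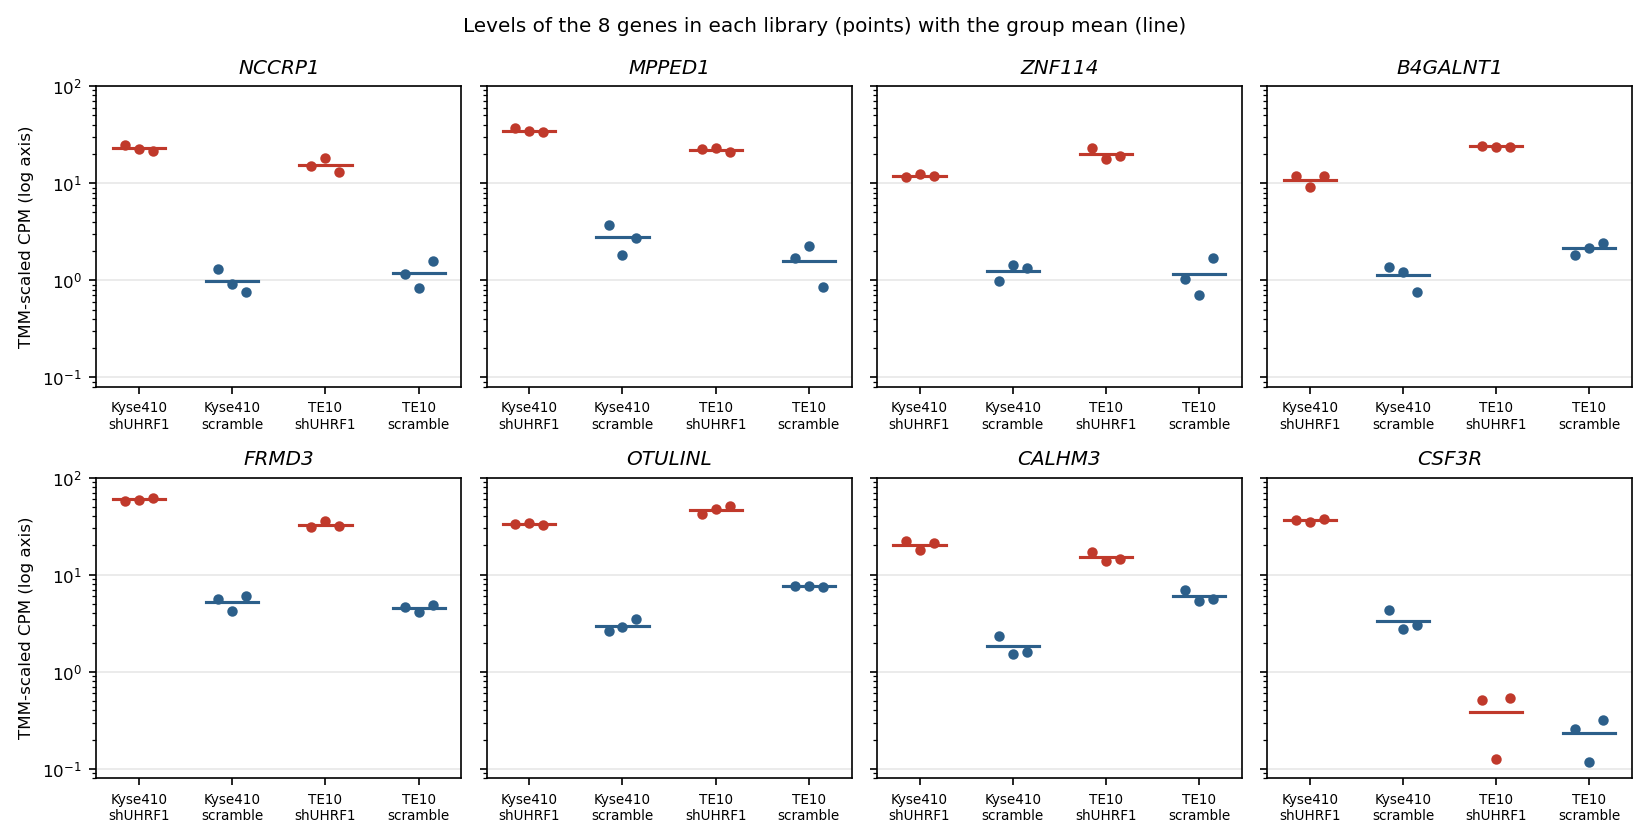
TMM-scaled CPM on a log axis (y) of the 8 genes in each of 4 groups (x), with a point per library and a line at the mean of 3. The shRNA points (red) lie above the scramble points (blue) of the same line for every gene except CSF3R in TE10, where both groups lie below 0.6 CPM.

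Counted over the set, all 3 shRNA libraries lay above all 3 scramble libraries for 8 of 8 genes in Kyse410 and 7 of 8 in TE10, where 25.6% and 23.1% of all tested genes did so. The same 8 and 7 genes were called higher, against 22.6% of all tested genes in Kyse410 and 18.8% in TE10. The set was picked for this difference, so the counts only restate the choice. The median log2 fold change of the 8 was 3.45 in Kyse410 (range 3.24 to 4.48) and 3.15 in TE10 (range 0.69 to 4.07), beside medians of −0.03 and 0.00 over all tested genes. Kyse410 values lay from 3.24 to 3.61 for 7 of the 8, with NCCRP1 above them. Since large rises chose the genes, these medians and ranges also restate the choice.

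**Figure D3:**
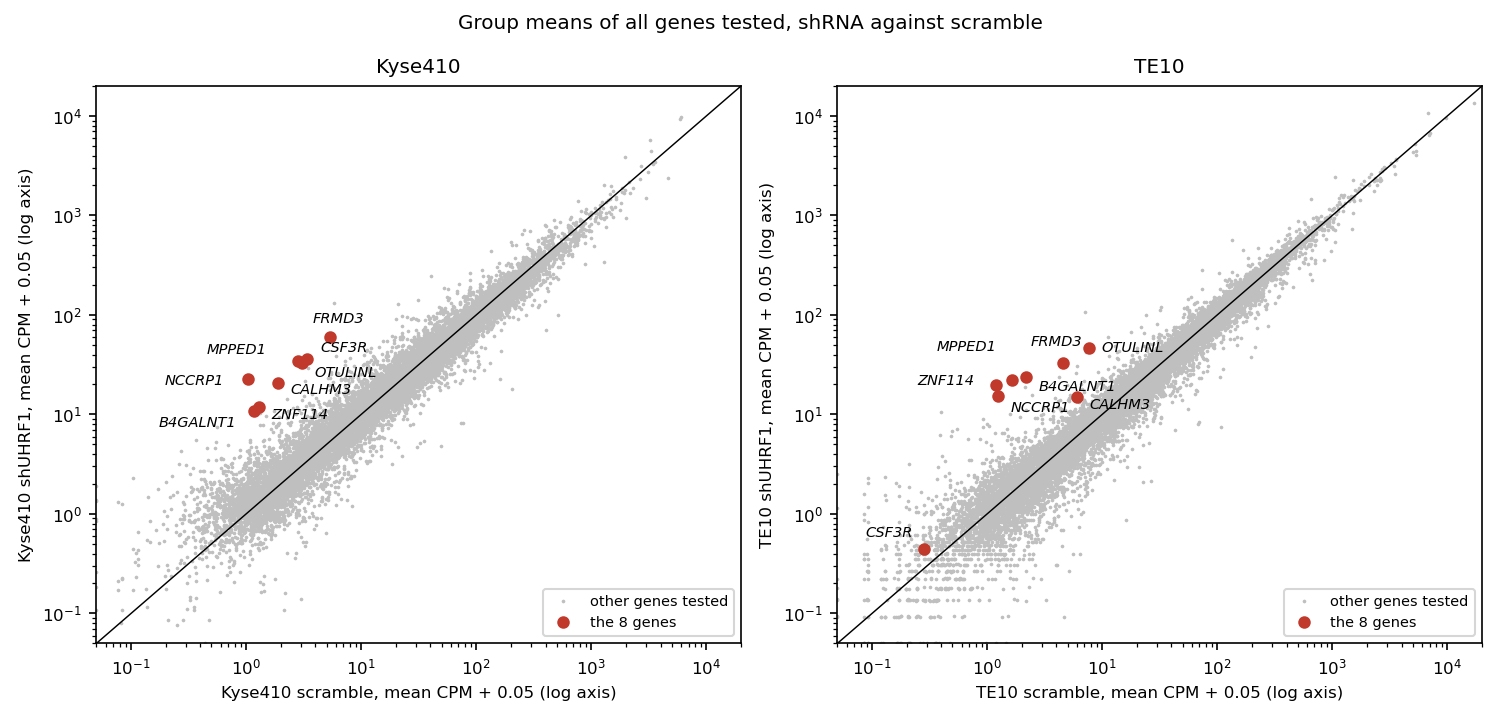
Mean CPM plus 0.05 of every tested gene in shRNA libraries (y, log axis) against scramble libraries (x, log axis), with Kyse410 left and TE10 right, the line of equal levels in black and the 8 genes in red. In Kyse410 all 8 lie far above the line, between 0.992 and 5.29 CPM in scramble libraries. In TE10 CALHM3 lies nearer to the line and CSF3R next to it.

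Most genes of a like scramble level did not lie with them. In Kyse410, 3411 tested genes had a scramble mean within the range of the 8, and 17.6% of them were called higher and 8.47% lower, with a median log2 fold change of 0.07. A fitted rise of at least 4-fold was found for 40 of them and a fall of that size for 25. Within this range none but the 8 reached 3.24, the lowest value of the set. Over all tested genes 30 reached it, members included. KRT4 (3.57) and SLC26A10 (3.81) were among them, from scramble levels below the range (0.253 and 0.212 CPM). In TE10 the range of the 8 held 5103 genes, of which 10.1% were called higher and 11.9% lower, with a median of −0.01. There, 52 genes had a fitted rise of at least 4-fold and 131 a fall of that size, and 626, members included, reached 0.69, the lowest value of the set. These fold changes chose the genes, so these counts only describe the choice.

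Where the set ends was read from the ranking of protein-coding genes that were called higher, averaged at least 5 CPM in the line and did not overlap between groups. Among 2530 such genes in Kyse410 the 8 took ranks 2 to 9, behind ALPG (log2 4.49), a germ cell alkaline phosphatase gene whose reads could also come from near-identical copies. B4GALNT1, the last of them, had 3.24, and the next below were the growth factor gene FGF19 (3.09), the mucin glycosyltransferase gene GCNT3 (3.01) and the hormone subunit gene CGA (2.68). Among 2274 such genes in TE10, ZNF114, MPPED1, NCCRP1, B4GALNT1, FRMD3 and OTULINL took 6 of the first 9 ranks. CALHM3 came at rank 58 with 1.34, just above the somatostatin receptor gene SSTR5 (1.30), the heparanase gene HPSE (1.29) and SDCBP2 (1.26). CSF3R was too low in TE10 to be ranked.

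**Figure D4:**
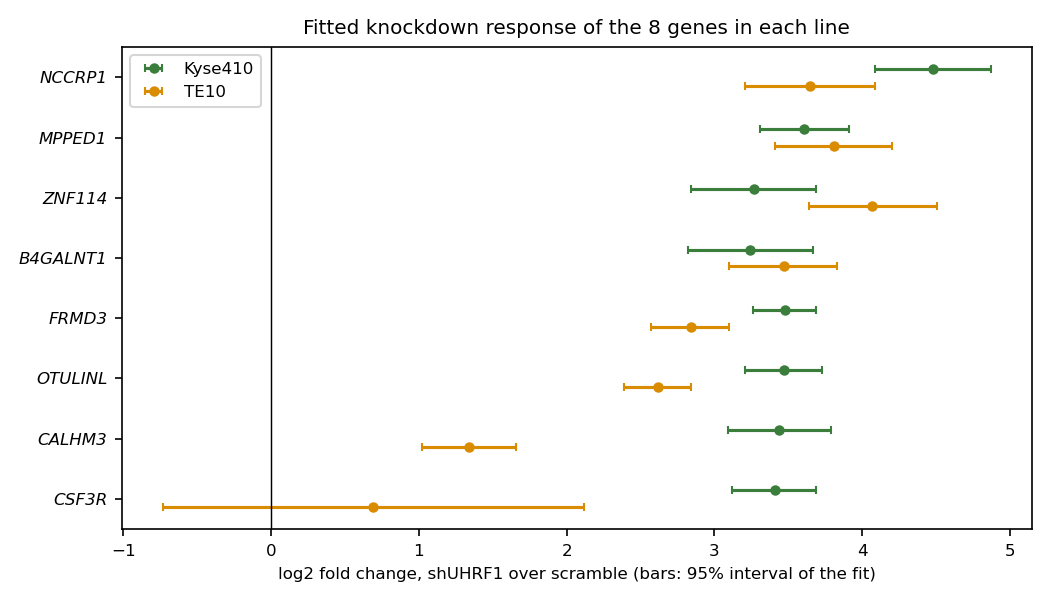
Fitted log2 fold change of shRNA over scramble (x axis) for each of the 8 genes (y axis), with Kyse410 in green above TE10 in orange and bars for the 95% interval. The bars are approximate and for most of the genes narrower than counting error alone. The Kyse410 values of all but NCCRP1 lie between 3.24 and 3.61, the TE10 values spread from 0.69 for CSF3R to 4.07 for ZNF114, and the TE10 interval of CSF3R spans 0.

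The fitted responses of the lines lay apart for some of the genes and not visibly for others. The difference, Kyse410 response minus TE10 response, was 2.1 for CALHM3 (95% interval 1.59 to 2.61). It was 0.85 for OTULINL (0.46 to 1.25), 0.83 for NCCRP1 (0.04 to 1.61) and 0.64 for FRMD3 (0.24 to 1.04). For CSF3R the fit gave 2.71 (0.99 to 4.43). Its TE10 response rests on 9 shRNA and 6 scramble reads and is undetermined (0.69, interval −0.73 to 2.12), so the size of this difference is too. ZNF114 alone had an interval wholly below 0, with −0.81 (−1.57 to −0.04). For MPPED1 (−0.20, interval −0.81 to 0.41) and B4GALNT1 (−0.22, interval −0.92 to 0.47) the interval spanned 0, which leaves room for a difference of nearly 2-fold. Since both contrasts chose the genes, these intervals are a description and no test of the differences is given. Over all tested genes 38.9% were called in this comparison.

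The scramble levels, a low level being part of the choice, are set side by side between the lines as a description, with intervals and no p-value. CSF3R averaged 3.36 ± 0.828 CPM in Kyse410 scramble and 0.232 ± 0.102 CPM in TE10 scramble libraries (SD, n = 3 each), a fitted log2 difference of 3.79 (95% interval 2.99 to 4.6) that rests on 6 reads in TE10. CALHM3 averaged 1.83 ± 0.456 CPM in Kyse410 and 5.98 ± 0.874 CPM in TE10 scramble libraries, with −1.67 (−2.11 to −1.22). OTULINL averaged 2.99 ± 0.467 CPM in Kyse410 and 7.62 ± 0.104 CPM in TE10 scramble libraries, with −1.35 (−1.71 to −1.0). For these 3 genes, every library of one line lay clear of every library of the other. Over all genes tested, 73.7% were called between the scramble groups of the lines.

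B4GALNT1 averaged 1.12 ± 0.324 CPM in Kyse410 and 2.13 ± 0.313 CPM in TE10 scramble libraries, with a log2 difference of −0.92 (95% interval −1.52 to −0.31). MPPED1 averaged 2.77 ± 0.951 CPM in Kyse410 and 1.60 ± 0.710 CPM in TE10 scramble libraries, with 0.85 (0.29 to 1.42), and its libraries overlapped. The MPPED1 difference was 0.56 without the Kyse410 scramble library of replicate 1 and 0.51 without the TE10 scramble library of replicate 3. For the other 3 genes the interval spanned 0, with log2 differences of 0.22 for FRMD3 (−0.13 to 0.57), 0.07 for ZNF114 (−0.64 to 0.78) and −0.26 for NCCRP1 (−0.99 to 0.47).

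Across the 4 groups the levels of the 8 genes followed 5 orders. NCCRP1, MPPED1 and FRMD3 were highest in Kyse410 shRNA, then in TE10 shRNA libraries, and their scramble groups at the bottom overlapped. ZNF114 had the 2 shRNA groups the other way round, with overlapping scramble groups. B4GALNT1 and OTULINL were highest in TE10 shRNA, then Kyse410 shRNA, then TE10 scramble and lowest in Kyse410 scramble libraries, with no overlap between neighbours in that order. CALHM3 followed the order Kyse410 shRNA, TE10 shRNA, TE10 scramble, Kyse410 scramble, also without overlap. CSF3R was highest in Kyse410 shRNA, then Kyse410 scramble, and the 2 TE10 groups at the bottom overlapped.

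Levels of different genes were set side by side per kilobase of exon, since a longer transcript gives more reads. In Kyse410 shRNA libraries CALHM3 and NCCRP1 led with 12.4 and 11.5 CPM per kilobase, followed by FRMD3 (9.16), OTULINL (8.09), MPPED1 (5.97), CSF3R (4.31), ZNF114 (3.98) and B4GALNT1 (1.36). In Kyse410 scramble libraries CALHM3 led with 1.11 CPM per kilobase and B4GALNT1 was last with 0.140. TE10 shRNA libraries had OTULINL first with 11.5 and B4GALNT1 at 2.98, above CSF3R at 0.0462. In TE10 scramble libraries CALHM3 was first with 3.62 and CSF3R last with 0.0275. Exon lengths were 1652 bases for CALHM3 to 8429 bases for CSF3R, from GENCODE 29 on GRCh38, while the reads were counted on GRCh37.p13, so these levels per length are approximate.

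Replicate spread was small where the genes were high and larger in proportion where they were low. The coefficient of variation of the 8 genes in Kyse410 shRNA libraries was 2.193% (OTULINL) to 13.6% (B4GALNT1), and in Kyse410 scramble libraries 15.6% (OTULINL) to 34.3% (MPPED1). Without CSF3R, it was 1.69% (B4GALNT1) to 17.0% (NCCRP1) in TE10 shRNA and 1.36% (OTULINL) to 44.5% (MPPED1) in TE10 scramble libraries. MPPED1 in Kyse410 scramble libraries had an SD of 0.951 CPM where its reads alone give 0.498, and in TE10 scramble libraries 0.710 where they give 0.428. For the other scramble values of the 8 the 2 numbers lay nearer to each other or the SD was the smaller. The Kyse410 scramble library of replicate 1 was the highest of its group for NCCRP1, MPPED1, B4GALNT1, CALHM3 and CSF3R, and not for ZNF114, FRMD3 and OTULINL. The biological coefficient of variation fitted by edgeR was 4.998% (FRMD3) to 8.09% (ZNF114), 0.918 to 1.017 times the trend for genes of like abundance.

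Among other protein-coding genes, the profile over the 12 libraries most like the mean of the 8 was found by Pearson's r of log2 CPM over 12048 genes. MARVELD1, a MARVEL-domain membrane protein gene, had r = 0.996, with 239.5 ± 2.64 CPM in Kyse410 shRNA and 134.7 ± 2.18 CPM in Kyse410 scramble libraries, and 223.2 ± 3.70 CPM in TE10 shRNA and 143.7 ± 4.25 CPM in TE10 scramble libraries. Its likeness is in shape only, since its log2 fold changes were 0.83 ± 0.042 in Kyse410 and 0.63 ± 0.044 in TE10. ALPG had r = 0.996 with log2 fold changes of 4.49 ± 0.10 and 3.90 ± 0.11 in the same order. LOXL1, a lysyl oxidase that crosslinks elastin, had r = 0.990 (log2 1.72 ± 0.090 in Kyse410 and 1.46 ± 0.10 in TE10). The villin relative VILL had r = 0.975 (2.13 ± 0.20 and 1.65 ± 0.24) and the lipid droplet protein gene PLIN4 had r = 0.970 (1.34 ± 0.092 and 1.40 ± 0.10). Within the set, r with the same mean was 0.914 to 0.995 for 7 genes and 0.448 for CSF3R, a description over the 12 libraries whose contrasts chose the genes.

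Neighbouring genes were looked at because they share a chromosome stretch and were not part of the choice. The 2 nearest protein-coding genes on each side of each of the 8, by GENCODE 29 order, were 32 genes, of which 23 were tested. In Kyse410, 10 were called higher and 6 lower, against 22.6% and 26.7% of all genes, with a median log2 fold change of 0.23. In TE10, 7 were called higher and 5 lower, against 18.8% and 20.0%, with a median of −0.04. At 2-fold or more, 5 were higher and 1 lower in Kyse410 (background 4.66% and 2.47%), and 2 were higher and 0 lower in TE10 (background 2.14% and 3.91%). With SLC26A10 set aside for its shared exons, NEURL1 was the other neighbour past 2-fold in TE10.

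Beside CALHM3, both genes on one side rose in both lines. NEURL1, an E3 ubiquitin ligase gene next to it, rose in Kyse410 with 140.9 ± 11.4 CPM in shRNA and 31.4 ± 2.12 CPM in scramble libraries (SD, n = 3 each), a log2 fold change of 2.16 ± 0.073 (edgeR adjusted p = 9.81e-31). In TE10 it rose to 65.4 ± 2.75 CPM in shRNA libraries, against 22.8 ± 4.52 CPM in scramble libraries, with 1.53 ± 0.090 (adjusted p = 2.71e-20). SH3PXD2A, a scaffold of invasive membrane protrusions and the gene beyond NEURL1, rose by log2 0.81 ± 0.052 in Kyse410 (adjusted p = 3.05e-19) and 0.54 ± 0.062 in TE10 (adjusted p = 2.47e-10). On the other side CALHM2 rose in Kyse410, at 7.31 ± 1.29 CPM in shRNA and 3.26 ± 0.601 CPM in scramble libraries (1.18 ± 0.19, adjusted p = 8.34e-07), and did not pass the test in TE10 (0.31 ± 0.17, adjusted p = 0.145).

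SCUBE1, a secreted EGF-repeat protein gene beside MPPED1, rose in Kyse410 to 6.65 ± 1.72 CPM in shRNA libraries, against 1.98 ± 0.324 CPM in scramble libraries (1.73 ± 0.25, edgeR adjusted p = 8.24e-08), and had −0.09 ± 0.28 in TE10 (adjusted p = 0.828). CCDC114, a cilium gene beside ZNF114, had 1.46 ± 0.28 in Kyse410 (adjusted p = 2.06e-05) and −0.03 ± 0.76 in TE10 (adjusted p = 0.978), where it had fewer than 0.4 CPM on average in each group. DNAH5, a dynein gene near OTULINL, fell by 1.44 ± 0.29 in Kyse410 (adjusted p = 3.51e-05) and had −0.62 ± 0.31 in TE10 (adjusted p = 0.114). Called the same way in both lines were PAK4 near NCCRP1 (0.24 ± 0.054 in Kyse410, adjusted p = 0.000128, and 0.20 ± 0.060 in TE10, adjusted p = 0.00651), EMP3 near ZNF114 (−0.52 ± 0.076, adjusted p = 7.4e-08, and −0.79 ± 0.075, adjusted p = 1.12e-12), and ZC3H12A near CSF3R (−0.45 ± 0.059, adjusted p = 5.76e-09, and −0.23 ± 0.079, adjusted p = 0.0162). Beside OTULINL, TRIO fell (−0.78 ± 0.041, adjusted p = 1.33e-22, and −0.11 ± 0.044, adjusted p = 0.0386) and ANKH rose (0.45 ± 0.046, adjusted p = 5.48e-12, and 0.21 ± 0.051, adjusted p = 0.000969), each with Kyse410 given before TE10. None of SCUBE1, CCDC114, DNAH5, PAK4, EMP3, ZC3H12A, TRIO and ANKH reached the size seen in the chosen gene near it. NEURL1 in TE10, with 1.53, did exceed CALHM3 with 1.34. SLC26A10, which shares exons with B4GALNT1, had a larger fitted rise than B4GALNT1 in both lines.

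**Figure D5:**
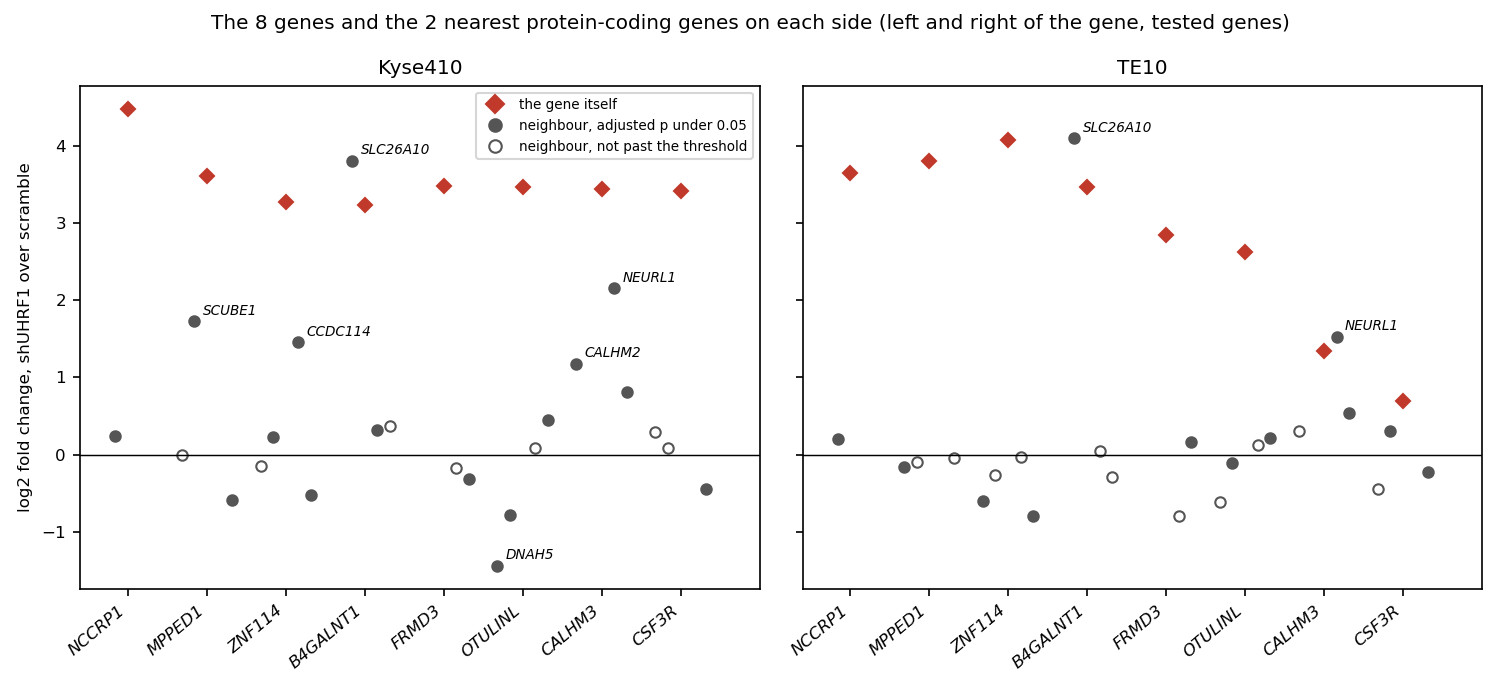
Log2 fold change of shRNA over scramble (y axis) for the 8 genes (red diamonds) and their tested neighbours (circles, left and right in chromosome order, filled at an adjusted p under 0.05), with Kyse410 left and TE10 right. Most neighbours lie between −1 and 1, while SLC26A10 overlaps B4GALNT1 at 3.81 in Kyse410 and 4.10 in TE10, and NEURL1 beside CALHM3 reaches 2.16 in Kyse410 and 1.53 in TE10.

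Relatives and pathway partners of the genes were followed in 8 lists of 135 genes, of which 97 were tested. In Kyse410, 26 were called higher and 34 lower, 61.9% of the 97 against 49.3% of all genes. In TE10, 18 were called higher and 32 lower, 51.5% against 38.8%. The median log2 fold change was −0.04 in Kyse410 and −0.06 in TE10, close to that of all genes. Rises of 2-fold or more were 5 in Kyse410 and 2 in TE10, falls of that size 4 in each line. The large rise of a member was therefore not matched by its relatives as a group.

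Ganglioside synthesis, the pathway of B4GALNT1, had 14 of 19 genes tested. Of these, 4 were called higher and 7 lower in Kyse410, and 1 higher and 6 lower in TE10, with medians of −0.05 and −0.35. UGCG, which makes the first glycolipid of the pathway, fell to 88.8 ± 6.93 CPM in Kyse410 shRNA, against 126.2 ± 5.0 CPM in Kyse410 scramble libraries (−0.51 ± 0.056, edgeR adjusted p = 5.79e-11). In TE10 it fell to 25.9 ± 1.04 CPM with the shRNA, against 43.2 ± 1.96 CPM with the scramble (−0.74 ± 0.083, adjusted p = 1.84e-10). The sialyltransferase gene ST6GALNAC6 fell in both lines (−0.72 ± 0.095 in Kyse410, adjusted p = 8.83e-09, and −0.46 ± 0.11 in TE10, adjusted p = 0.000916). ST6GALNAC4 rose in Kyse410 (1.32 ± 0.15, adjusted p = 2.38e-10) and did not pass the test in TE10 (0.21 ± 0.12, adjusted p = 0.158). ST6GALNAC5 fell in Kyse410 (−1.44 ± 0.46, adjusted p = 0.00775) from fewer than 2 CPM. ST8SIA1, which makes GD3, had at most 3 reads in any library.

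Ganglioside breakdown had 9 of 13 genes tested, with 2 higher and 4 lower in Kyse410 and 1 higher and 4 lower in TE10. The lysosomal sialidase gene NEU1 fell to 30.5 ± 2.93 CPM in Kyse410 shRNA, against 69.7 ± 1.32 CPM in Kyse410 scramble libraries (−1.19 ± 0.070, edgeR adjusted p = 1.76e-20), and fell in TE10 by 0.37 ± 0.076 (adjusted p = 7.85e-05). GM2A, the activator that presents GM2 to its hydrolase, rose in Kyse410 (1.26 ± 0.23, adjusted p = 9.5e-06) and fell in TE10 (−0.59 ± 0.15, adjusted p = 0.00174). The galactosidase gene GLB1 fell in both lines (−0.23 ± 0.059 in Kyse410, adjusted p = 0.00122, and −0.38 ± 0.066 in TE10, adjusted p = 6.01e-06). SMPD1, the acid sphingomyelinase gene, rose in both (0.37 ± 0.079 in Kyse410, adjusted p = 7.76e-05, and 0.33 ± 0.093 in TE10, adjusted p = 0.00337).

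OTU deubiquitinases and the linear ubiquitin machinery, the relatives of OTULINL, had 18 of 21 genes tested. Of these, 1 was higher and 9 lower in Kyse410, and 3 higher and 7 lower in TE10. TNFAIP3, the A20 brake on NF-kB signalling, fell to 138.9 ± 1.68 CPM in Kyse410 shRNA, against 393.2 ± 8.07 CPM in Kyse410 scramble libraries (−1.50 ± 0.042, edgeR adjusted p = 3.94e-34), and by 0.56 ± 0.068 in TE10 (adjusted p = 1.03e-09). OTUD1 fell in TE10 to 22.9 ± 3.45 CPM, against 51.8 ± 3.45 CPM in scramble libraries (−1.18 ± 0.087, adjusted p = 1.44e-16), and by 0.42 ± 0.058 in Kyse410 (adjusted p = 2.38e-08). CYLD, another deubiquitinase of linear chains, fell in both (−0.67 ± 0.074 in Kyse410, adjusted p = 5.14e-11, and −0.45 ± 0.11 in TE10, adjusted p = 0.000522). OTUD6B fell in Kyse410 (−0.43 ± 0.093, adjusted p = 0.000111) and did not pass the test in TE10 (0.09 ± 0.077, adjusted p = 0.352).

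FERM domain genes, the relatives of FRMD3, had 17 of 24 tested, with 5 higher and 7 lower in Kyse410 and 5 higher and 3 lower in TE10. FRMD5 fell to 2.62 ± 0.342 CPM in Kyse410 shRNA, against 6.31 ± 0.979 CPM in Kyse410 scramble libraries (−1.26 ± 0.21, edgeR adjusted p = 1.6e-06). In TE10 it fell to 3.15 ± 0.857 CPM, against 9.52 ± 1.16 CPM in scramble libraries (−1.59 ± 0.21, adjusted p = 1.8e-08). EPB41L1, a band 4.1 gene, rose in both lines (0.66 ± 0.062 in Kyse410, adjusted p = 5.78e-13, and 0.78 ± 0.071 in TE10, adjusted p = 2.87e-13). EPB41L4A and FRMD8 rose in Kyse410 (0.85 ± 0.15, adjusted p = 4.62e-06, and 0.76 ± 0.076, adjusted p = 3.92e-12) and did not pass the test in TE10 (−0.05 ± 0.17, adjusted p = 0.836, and 0.12 ± 0.076, adjusted p = 0.235).

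F-box-associated domain proteins and their SCF ligase partners, the relatives of NCCRP1, were all tested, 8 of 8. Of these, 3 were higher and 0 lower in Kyse410, and 2 higher and 2 lower in TE10. FBXO27, a glycoprotein-binding F-box gene, rose to 6.57 ± 0.390 CPM in Kyse410 shRNA, against 1.67 ± 0.740 CPM in Kyse410 scramble libraries (2.0 ± 0.26, edgeR adjusted p = 4.27e-09). In TE10 it rose to 3.02 ± 0.200 CPM, against 1.39 ± 0.593 CPM in scramble libraries (1.13 ± 0.34, adjusted p = 0.0057). FBXO2 rose in both lines (0.52 ± 0.058 in Kyse410, adjusted p = 5.39e-11, and 0.59 ± 0.074 in TE10, adjusted p = 3.38e-09). FBXO44 rose in Kyse410 (0.30 ± 0.098, adjusted p = 0.00787) and had −0.04 ± 0.11 in TE10 (adjusted p = 0.812), and FBXO17 fell in TE10 (−0.47 ± 0.16, adjusted p = 0.0161) and had −0.18 ± 0.10 in Kyse410 (adjusted p = 0.154).

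Relatives of MPPED1 with a metallophosphoesterase fold had 4 of 7 genes tested, with 2 higher in Kyse410, 1 higher in TE10 and 0 lower in either. ACP5, the tartrate-resistant acid phosphatase gene, rose from a low level, with 1.73 ± 0.158 CPM in Kyse410 shRNA and 0.630 ± 0.160 CPM in Kyse410 scramble libraries (1.41 ± 0.41, edgeR adjusted p = 0.00332), and 1.75 ± 0.758 CPM with the shRNA and 0.783 ± 0.0459 CPM with the scramble in TE10 (1.16 ± 0.44, adjusted p = 0.0309). SMPDL3A rose in Kyse410 (0.63 ± 0.14, adjusted p = 0.000149) and had 0.36 ± 0.15 in TE10 (adjusted p = 0.0515).

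CALHM channels, pannexins and taste signalling genes, the relatives and partners of CALHM3, had 6 of 14 tested, with 3 higher and 2 lower in Kyse410 and 2 higher and 1 lower in TE10. The pannexin gene PANX2 rose in both lines by the same amount (0.57 ± 0.078 in Kyse410, edgeR adjusted p = 1.38e-08, and 0.57 ± 0.083 in TE10, adjusted p = 1.22e-07). PANX1, which also forms an ATP release channel, fell in Kyse410 (−0.54 ± 0.077, adjusted p = 5.49e-08) and rose in TE10 (0.29 ± 0.077, adjusted p = 0.00205). PLCB2, a phospholipase of taste cells, did the reverse, with 0.82 ± 0.14 in Kyse410 (adjusted p = 3.92e-06) and −0.85 ± 0.22 in TE10 (adjusted p = 0.00162).

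Signalling genes around CSF3R, with related receptors, JAK kinases and STAT factors, had 21 of 29 tested. Of these, 6 were higher and 5 lower in Kyse410, and 3 higher and 9 lower in TE10. OSMR, the oncostatin M receptor gene, rose to 301.3 ± 6.30 CPM in Kyse410 shRNA, against 233.4 ± 2.53 CPM in Kyse410 scramble libraries (0.37 ± 0.039, edgeR adjusted p = 1.72e-11). In TE10 it fell to 138.2 ± 4.54 CPM, against 240.9 ± 1.68 CPM in scramble libraries (−0.80 ± 0.044, adjusted p = 1.29e-21). SOCS3, the feedback inhibitor of CSF3R and its relatives, rose slightly in Kyse410 (0.13 ± 0.051, adjusted p = 0.0346) and fell in TE10 to 17.3 ± 0.211 CPM, against 44.8 ± 2.18 CPM in scramble libraries (−1.38 ± 0.085, adjusted p = 1.92e-19). JAK2 fell in both lines (−0.37 ± 0.14 in Kyse410, adjusted p = 0.0242, and −0.78 ± 0.17 in TE10, adjusted p = 0.000249). IL11RA fell in TE10 (−1.43 ± 0.52, adjusted p = 0.0236) and had 0.54 ± 0.42 in Kyse410 (adjusted p = 0.293), at fewer than 2 CPM on average in every group.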

How the data were processed

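The authors deposited raw read counts per gene, with a file for each library that ends in counters of unassigned reads. Per the submitters' processing notes, the build was GRCh37.p13, and HISAT2 2.1.0, HTSeq 0.9.1, bcl2fastq 2.19 and DESeq2 were used in roles that the notes leave out. Neither the annotation release nor the strand setting is given in the sources used. Of 57820 identifiers 52339 were given symbols, and these held 99.03% of gene reads. Symbols came from a reference list of gene names, and from GENCODE 29 where that list had no entry. UHRF1 was named from its identifier, ENSG00000034063.9. Rows that name no gene held 58.9 to 61.5% of all reads and stayed out of library sizes and tests. Gene positions are not printed for the counts, since the annotation is of another build than theirs.

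From the counts, genes were kept by filterByExpr (16060 of them), scaled by TMM and fitted with edgeR 4.0.16 in R 4.3.3 (quasi-likelihood, all 12 libraries, a mean per group, 8 residual degrees of freedom). Benjamini-Hochberg adjustment covered all 16060 genes, and calls took an adjusted p under 0.05. Levels are TMM-scaled CPM with the SD of 3 libraries. The SE of a log2 fold change was derived from edgeR's F statistic, as the absolute log2 fold change over the square root of F. The fitted 95% intervals rest on this SE. They are approximate and understate the uncertainty. For most of the 8 genes in both lines they were narrower on the log2 scale than the interval from counting error alone. This held for NCCRP1 in Kyse410, and also for FRMD3 there, with 1920 shRNA and 174 scramble reads. The scripts were tested on simulated data. Counting intervals are exact at 95% and, like floors, cover counting error only, since reads without molecular identifiers are not independent molecules. Tables and plots used pandas 2.3.3, SciPy 1.17.1, numpy 2.4.6 and matplotlib 3.10.9 in Python 3.11.15.

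Genes and lists were chosen with earlier results of these data known. The difference between scramble groups, planned as a test, is given for the 8 genes as an interval alone, since low scramble levels were part of their choice. Named besides the 8, UHRF1 and OTULIN were, per family list, at most 4 called genes with the largest fold change and at least 1 CPM in that line. Among neighbours, those called the same way in both lines or at 2-fold or more were named, and so were the 3 genes ranked next below the 8 in each line and the 5 with the most similar profile. CSF3, CALHM1, ST8SIA1 and the cell type markers, named in addition, were chosen after their values were seen. The alternatives were DESeq2 size factors, the DESeq2 1.42.0 Wald test, no filter, a replicate block, fits of only the 2 groups compared, leaving out each library in turn, and CPM on plain totals. Same-numbered shRNA and scramble libraries did not deviate together (correlations −0.005 to 0.037), so the numbers were not taken as pairs.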

Additional observations from a re-analysis of the deposited data

Results flagged for a closer look

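The knockdown response differed between the lines for 20 of 41 relatives, partners and neighbours named above, by edgeR's test of the difference itself. Those genes were named for large responses, often in one line, so their share says nothing of relatives or neighbours in general. Each value is the log2 response of Kyse410 minus that of TE10. Around CSF3R the difference was 1.97 for IL11RA (edgeR adjusted p = 0.0152), 1.5 for SOCS3 (adjusted p = 5.02e-18) and 1.17 for OSMR (adjusted p = 7.79e-23). In ganglioside metabolism it was 1.84 for GM2A (adjusted p = 3.22e-07), 1.11 for ST6GALNAC4 (adjusted p = 6.01e-06) and −0.82 for NEU1 (adjusted p = 5.11e-09).

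Among relatives of OTULINL the difference was −0.94 for TNFAIP3 (edgeR adjusted p = 6.16e-14), 0.76 for OTUD1 (adjusted p = 4.36e-08) and −0.53 for OTUD6B (adjusted p = 0.000378). FERM domain genes gave 0.90 for EPB41L4A (adjusted p = 0.00121) and 0.64 for FRMD8 (adjusted p = 2.66e-06). Channel and taste genes gave 0.87 for CALHM2 (adjusted p = 0.00546), 1.67 for PLCB2 (adjusted p = 8.02e-07) and −0.82 for PANX1 (adjusted p = 1.3e-08). Neighbours gave 1.82 for SCUBE1 (adjusted p = 0.000105), 0.27 for EMP3 (adjusted p = 0.0452), −0.67 for TRIO (adjusted p = 1.74e-13), 0.24 for ANKH (adjusted p = 0.00348), 0.63 for NEURL1 (adjusted p = 2.49e-05) and 0.27 for SH3PXD2A (adjusted p = 0.00565). In the contrast of each line, from the same fit of all 12 libraries, GM2A, PLCB2, PANX1 and OSMR were called in opposite directions, as was SOCS3.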

How the results depend on the processing

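Counts of called genes stayed within 1.5 times under every alternative run. Without 1 library, 7140 to 8057 genes were called in Kyse410 (7921 with all), 5442 to 6471 in TE10 (6231), 5758 to 6134 for the difference between lines (6240) and 11396 to 12023 between scramble controls (11839). With a replicate block these 4 counts were 7975, 6319, 6333 and 11837. DESeq2 size factors moved the TE10 split to 3375 higher and 2984 lower, against 3019 and 3212 with TMM. The knockdown fold changes of the 8 genes kept their direction in 271 refits, of which 267 moved a value by less than the spread between replicates, and CSF3R in TE10 ranged from 0.40 to 1.11. Large rises in these same libraries chose the genes, so the kept direction largely restates the choice and is no independent check. A fit of the TE10 groups alone gave no value for CSF3R, which the filter then drops.

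The scramble difference between the lines turned its sign when 1 library was left out for NCCRP1 (range −0.53 to 0.02, with 0.02 without TE10 scramble replicate 3) and ZNF114 (range −0.19 to 0.49, with −0.04 without Kyse410 scramble replicate 2, −0.01 without TE10 scramble replicate 1 and −0.19 without TE10 scramble replicate 2). Both intervals spanned 0 with all libraries, and the cause was not tested. Levels on plain gene-read totals differed by −3.94 to 4.52% from those given. Most scramble values of NCCRP1, ZNF114 and B4GALNT1 rest on fewer than 20 reads per library, which limits their precision.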
